A study of Mus musculus with 2 samples.

Results

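The genes described here handle long-chain fatty acids between the cell surface and their use inside the cell. They were picked by symbol in the array annotation: Cd36, Slc27a2 and Slc27a4 for uptake, Fabp1, Fabp2 and Dbi for binding, and Acsl1, Acsl3, Acsl4 and Acsl5 for activation. Of these 10 genes 9 were found, read by 19 of the 34945 probe sets with 1 gene symbol (18193 genes in all). Acsl1 is carried by no probe set as its only symbol and was not analysed here. The material was crypts of mouse small intestine. The knockout was Lpcat3 F/F, Villin-CreERT2, in which the villin promoter limits a tamoxifen-dependent Cre recombinase to the intestinal epithelium. The control was Lpcat3 F/F without Cre. Both groups were 8 to 10 weeks old, had tamoxifen for 5 days at 1 mg per mouse and day, and gave crypts 2 weeks afterwards. Each group was 1 pool of RNA from 5 mice read on 1 Affymetrix array, so Cre, loss of Lpcat3, pool and array cannot be told apart and no difference below has a replicate check.

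Long-chain fatty acids enter enterocytes with the help of the scavenger receptor CD36 and the fatty acid transport proteins of the SLC27 family. In the cytosol small fatty acid binding proteins carry them. Acyl-CoA synthetases then join them to coenzyme A, which traps them and makes them substrates for triglyceride, phospholipid and sterol ester synthesis or for oxidation, and the acyl-CoA binding protein encoded by Dbi carries the products. LPCAT3, the enzyme deleted here, takes its acyl groups from such acyl-CoAs when it places polyunsaturated fatty acids into phospholipids.

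The upstream sequences of 2 members are shown because Fabp1 holds letters that nuclear receptors for fatty acids can read and Cd36, the member with the lowest ratio, does not hold them in the same window. The RefSeq promoter table of GRCm38.p6 had 12 windows for all 10 members, each running from 250 bases before an annotated start to 50 after it. Both strands were searched for a direct repeat (AGGNCA, any 1 base, AGGNCA), the layout bound by PPARs with RXR and by HNF4A, for a sterol regulatory element (ATCAC, any 1 base, CCAC), for a TATA box (TATAAA) and for a CCAAT box (CCAAT). The 250 bases before the start are printed 5′ to 3′ on the gene's strand, with matches in capitals. Fabp1 lies on the plus strand at chr6:71199629-71199878 and Cd36 on the minus strand at chr5:17835897-17836146.
Fabp1: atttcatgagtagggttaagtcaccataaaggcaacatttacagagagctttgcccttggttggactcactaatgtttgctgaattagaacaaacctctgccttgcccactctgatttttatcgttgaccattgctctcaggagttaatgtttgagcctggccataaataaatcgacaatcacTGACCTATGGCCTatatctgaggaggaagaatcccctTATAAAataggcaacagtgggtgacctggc
Cd36: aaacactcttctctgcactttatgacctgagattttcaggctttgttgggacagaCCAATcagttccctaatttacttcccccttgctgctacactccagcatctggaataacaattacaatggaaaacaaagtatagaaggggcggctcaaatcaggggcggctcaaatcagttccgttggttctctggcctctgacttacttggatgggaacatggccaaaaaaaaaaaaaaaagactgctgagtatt
In Fabp1 the direct repeat, on the reverse strand, spans bases -67 to -55 counted from the start, and the TATA box spans -30 to -25. The direct repeat occurred in 1 of the 12 member windows and in 0.381% of all 32851 windows of the table. The TATA box occurred in 1 of 12, against 13.6% of all windows, and the CCAAT box in 7 of 12, against 37.4%. No member window held the sterol regulatory element, found in 0.234% of all windows. A match describes these letters and does not show binding.

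Signals are MAS5 intensities on a linear scale, and ratios are log2 of knockout over control. A signal below 92.9, the median over both arrays without control probe sets, counts as not measured (the floor). Median signal was 90.5 on the knockout array and 95.4 on the control array, and 11496 genes exceeded the floor in 1 pool or both, with a median ratio of -0.042. The technical error, taken from pairs of probe sets for 1 gene on the same arrays, had an SD of 0.28 (4582 genes). It leaves out the spread between mice and any error of a pool or array that both probe sets share. It includes differences in what the 2 probe sets of a gene read. Lpcat3 itself had a signal of 928 in the knockout pool and 4691 in the control pool, by 1 probe set whose place relative to the deleted exons is not stated. Actb had a ratio of 3' to 5' signal, which tracks RNA integrity, of 1.64 in the knockout pool and 1.98 in the control pool. To check the label, markers of several cell types were read. Some crypt cell genes were far above the floor in both pools, such as the Paneth gene Lyz1 (38133 in the knockout pool, 46003 in the control pool) and the stem cell gene Olfm4 (21348 in the knockout pool, 32027 in the control pool), both chosen after their values were seen. Genes known mainly from villus enterocytes were also bright, such as Alpi (27416 in the knockout pool, 17823 in the control pool), chosen likewise. Of 18 enterocyte markers 16 were measured, with a median ratio of 0.045, and all 8 goblet markers were measured, with a median of -0.13. The goblet markers ran from Clca1 (-0.39) to Agr2 (0.17, with 1.33 by its other probe set). Paneth markers (median -1.07 over 6), stem cell markers (-0.57 over 8), enteroendocrine markers (-0.75 over 8) and tuft cell markers (-1.13 over 6) had negative medians. Paneth markers ran from Mptx1 (-1.90) to Lyz1 (-0.27). Stem cell markers ran from Lgr5 (-2.25, at 171 in the knockout pool and 814 in the control pool) to Tnfrsf19 (at least 1.10-fold lower). Enteroendocrine markers ran from Ghrl (-1.09) to Sct (0.60), and tuft cell markers from Rgs13 (-1.28) to Trpm5 (-0.62). All 8 T and natural killer cell markers were lower (median -2.52), and all 6 measured B and plasma cell markers were higher (median 1.12). The B and plasma cell markers ran from Cd79a (0.12) to Jchain (2.33). In bulk RNA, fewer cells of a type and less RNA per cell cannot be told apart.

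The 9 genes did not shift one way. The 3 measured synthetases were each at least 1.5-fold higher in the knockout pool, 2 of the 3 uptake genes were at least 1.5-fold lower, and the 3 binding proteins were higher by less than 1.5-fold. That makes 3 of 9 at least 1.5-fold higher, where 4.76% of all 11496 genes were, and 2 of 9 at least 1.5-fold lower, where 8.74% were. The count of higher genes was 2 after quantile normalisation, after lowess and with the mean over probe sets. The shares of all genes depend on scaling: 547 were higher and 1005 lower as deposited, and 737 and 795 after median scaling. In any size, 7 of the 9 were higher, beside 44.9% of all genes, and their median ratio was 0.38. Of the 19 probe sets 16 exceeded the floor in both pools, 2 in 1 pool and 1 in neither. Of the 18 with a ratio, 14 were higher and 4 lower. None of the 5 genes with more than 1 probe set had probe sets pointing in opposite directions. The other 4 genes had only 1 probe set and could not differ.

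**Figure D1:**
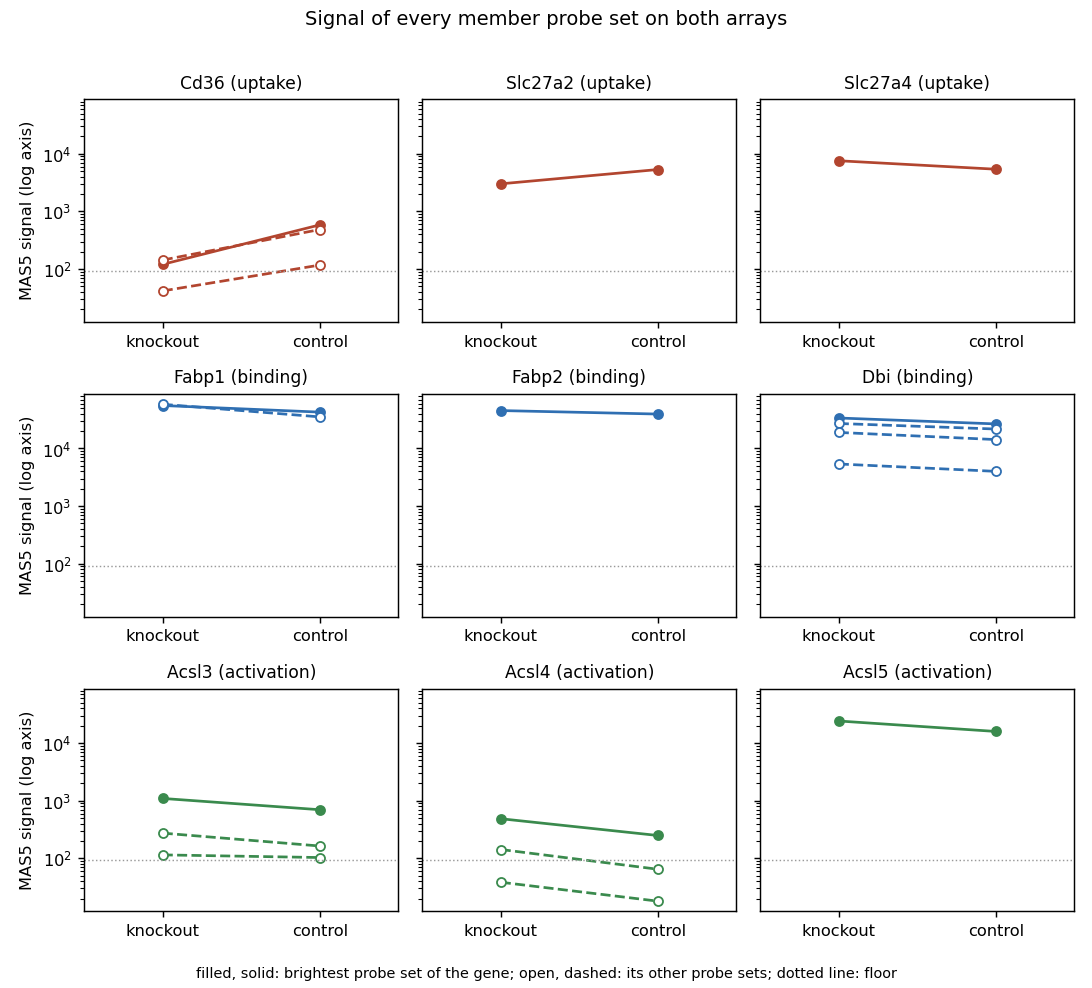
MAS5 signal (log axis) of every probe set of the 9 genes, knockout array at left and control array at right in each panel; a line joins the 2 signals of 1 probe set, solid and filled for the brightest, and the dotted line is the floor of 92.9. Lines of Cd36 and Slc27a2 climb toward the control, and those of the other 7 genes climb toward the knockout.

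Among the uptake genes the widest difference was that of Cd36, the scavenger receptor that binds long-chain fatty acids at the cell surface. Its brightest probe set read 120 in the knockout pool, against 584 in the control pool. A second probe set read 143 in the knockout pool, against 485 in the control pool. These are log2 ratios of -2.28 (4.84-fold lower) and -1.76 (3.39-fold lower). The third probe set read 41.6 in the knockout pool, under the floor, and 117 in the control pool, so it was at least 1.26-fold lower. All 3 probe sets therefore gave a lower signal in the knockout pool. The brightest one placed Cd36 as number 15 from the lowest of 11496 genes. The knockout signals were close to the floor, so the size of the ratio depends on it: with the floor at the 70th percentile the difference was only bounded, at 1.84-fold or more.

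Cd36 is also known from macrophages, endothelium, adipocytes and platelets. Of 11 macrophage markers 7 were measured, with a summed signal of 4181 in the knockout pool and 4176 in the control pool, 2 of the 7 at least 1.5-fold higher and none of the 7 at least 1.5-fold lower. Their lowest ratio was that of Cd14 (-0.40). Csf1r had the highest (2.53, with 1.21 and 0.65 by its other probe sets), at 700 in the knockout pool and 121 in the control pool. Of the marker genes chosen after their values were seen, C1qa read 246 in the knockout pool and 41.9, under the floor, in the control pool. Lyz2, which makes up most of both sums, read 2477 in the knockout pool and 3225 in the control pool. Adgre1, picked likewise, was above the floor on both arrays, at 121 in the knockout pool and 115 in the control pool. Cd163, Pecam1, Cdh5, Adipoq, Pf4 and Ppbp, chosen in the same way as defining genes of these cell types, were below the floor on both arrays. Of 9 endothelial markers only Eng (0.24) and Kdr (at least 1.08-fold lower) were measured, with sums of 268 in the knockout pool and 250 in the control pool. Of 7 adipocyte markers only Cidec (0.96) was measured, at 627 in the knockout pool and 321 in the control pool. Of 8 blood and platelet markers only Itga2b (0.39) was measured, at 253 in the knockout pool and 193 in the control pool. The T and natural killer markers summed to 3338 in the knockout pool and 19605 in the control pool, from Cd7 (at least 10.3-fold lower) to Cd3d (-1.55). The part of lymphocyte RNA in the Cd36 signal was not tested.

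The SLC27 transporters, which also act as acyl-CoA synthetases, went opposite ways. Slc27a2, which encodes a very long-chain acyl-CoA synthetase also called FATP2, read 3014 in the knockout pool, against 5338 in the control pool. This is a log2 ratio of -0.82 (1.77-fold lower), 2.96 times the technical SD, and 4.04% of all genes had a lower ratio. Slc27a4 encodes FATP4, the main transport protein of this family in the small intestine. It read 7579.9 in the knockout pool, against 5405 in the control pool, a ratio of 0.49 (1.40-fold higher). That is 1.75 times the technical SD, and each of these transporters was read by 1 probe set only. Enterocyte markers stood on either side as well, 8 higher and 8 lower, with a summed signal of 216642 in the knockout pool and 207765 in the control pool. They ran from the lactase gene Lct (-1.36) to Mttp (0.66), which loads lipid onto nascent lipoproteins.

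The binding proteins had small ratios, and the signals of Fabp1 and Fabp2 lay near the top of the range of both arrays. Fabp1, the liver-type fatty acid binding protein that is also abundant in the intestine, read 55763 in the knockout pool and 42836 in the control pool by its brightest probe set. Its other probe set read 58616.5 in the knockout pool, the highest signal of that array, and 35382.5 in the control pool. The ratios were 0.38 (1.30-fold higher) and 0.73 (1.66-fold higher), so both probe sets were higher in the knockout pool and only the second one reached 1.5-fold. Fabp2, the intestinal-type binding protein, read 45576 in the knockout pool and 39635 in the control pool. At 0.20 (1.15-fold higher), its ratio was smaller than the technical SD.

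Dbi, the acyl-CoA binding protein gene, had a smaller spread between its probe sets than Fabp1, Acsl3 or Cd36. Its 4 probe sets read 33860, 27173, 19004 and 5383 in the knockout pool. In the control pool the same probe sets read 26723, 21775, 14289.7 and 4008. Each was higher in the knockout pool, by 1.27-fold, 1.25-fold, 1.33-fold and 1.34-fold, a mean log2 ratio of 0.37 with an SD of 0.052 between probe sets. Of the 4, 3 are of the _x_at kind, which can bind transcripts of related genes, and the 1 that is not gave 0.41. This agreement covers the reading of these pools and not the spread between mice.

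**Figure D2:**
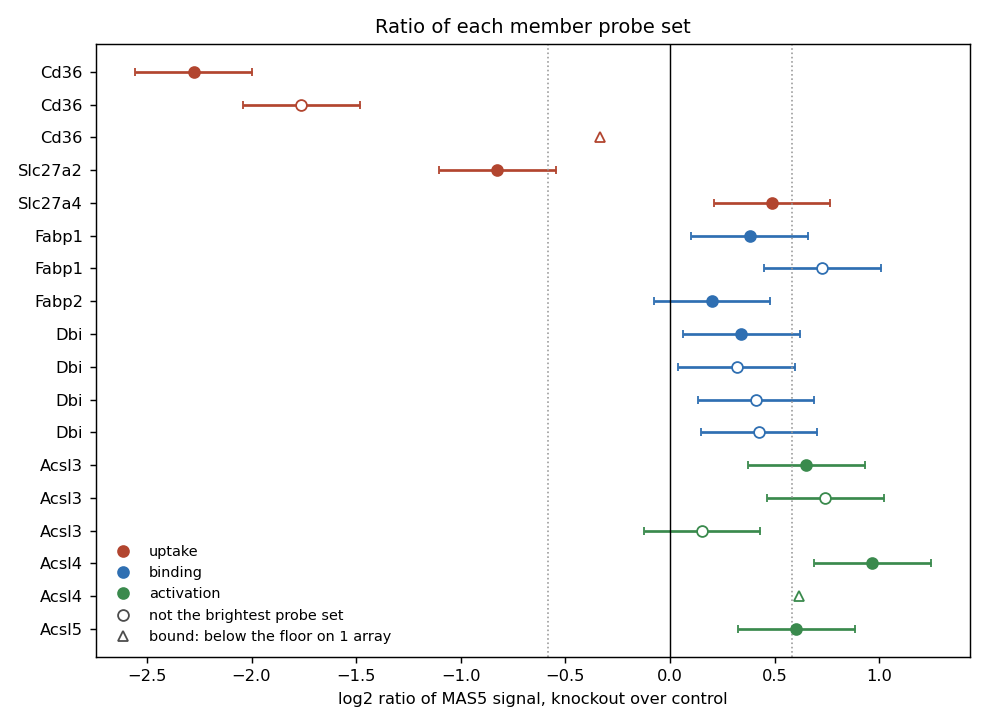
Log2 ratio of MAS5 signal, knockout over control, of the 18 member probe sets above the floor on at least 1 array; bars are the technical SD of 0.28, triangles are bounds with no bar, filled symbols are the brightest probe set of a gene, and dotted lines mark 1.5-fold. Both fully measured Cd36 probe sets lie below -1.5, the 4 Dbi probe sets lie within 0.32 to 0.43, and the synthetases reach 0.97.

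The 3 measured activating enzymes were higher in the knockout pool. Acsl4, a synthetase that prefers arachidonic acid and other polyunsaturated fatty acids, had the highest ratio of the 9 genes. Its brightest probe set read 487 in the knockout pool, against 249 in the control pool, a log2 ratio of 0.97 (1.96-fold higher). A second probe set read 142 in the knockout pool and 64.6 in the control pool, under the floor, which makes it at least 1.53-fold higher, and the third lay below the floor on both arrays (38.4 in the knockout pool, 18.0 in the control pool). Acsl4 was number 174 from the highest of all 11496 genes. With the floor at the 70th percentile its control signal lay below it and the gene was at least 1.53-fold higher.

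Acsl3, which acts at the endoplasmic reticulum and on lipid droplets, was read by 3 probe sets. They read 1097, 274 and 115 in the knockout pool. In the control pool they read 698, 164 and 103. The log2 ratios were 0.65 (1.57-fold higher), 0.74 and 0.15, the last from signals just above the floor, and their mean of 0.52 was under 1.5-fold. The brightest is an _s_at probe set, which can bind transcripts of related genes. Acsl5, a synthetase strongly expressed in the small-intestinal epithelium, read 24261 in the knockout pool, against 15966 in the control pool by its only probe set. Its ratio of 0.60 (1.52-fold higher) sat at the edge of the threshold, and it came to 1.49-fold after quantile normalisation and 1.47-fold after lowess. The ratios of Acsl4, Acsl3 and Acsl5 were 3.47, 2.33 and 2.16 times the technical SD.

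**Figure D3:**
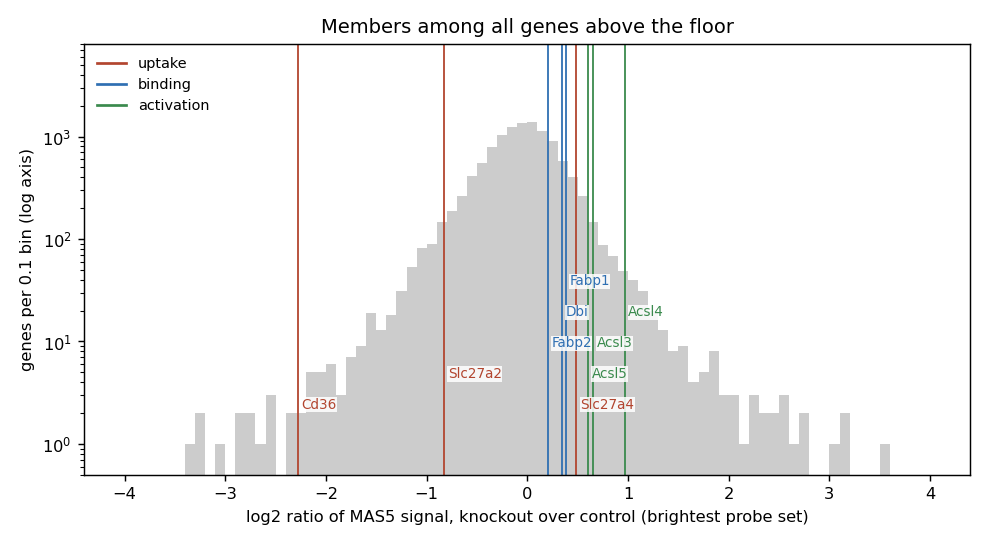
Number of genes (log axis) per bin of 0.1 in log2 ratio, knockout over control, for the 11496 genes above the floor on at least 1 array, with vertical lines at the 9 genes by role. Cd36 at -2.28 and Slc27a2 at -0.82 lie in the lower tail, and the other 7 genes lie between 0.20 and 0.97.

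The other genes of these families did not share one direction. Apart from transcription factors, 35 of 66 listed genes were measured: 4 were at least 1.5-fold higher, 3 at least 1.5-fold lower and 28 in between, and their median ratio was 0.15. These are 11.4% higher and 8.57% lower, beside 4.76% and 8.74% of all genes, so the lower share is near that of all genes. Of 7 other uptake genes measured, 1 was at least 1.5-fold higher and none of the 7 at least 1.5-fold lower, with a median of -0.011 (0.20 with the floor at the 70th percentile). That gene was Mfsd2a, which imports lysophosphatidylcholine carrying long-chain fatty acids. It read 1600 in the knockout pool and 563 in the control pool, a ratio of 1.51 (2.84-fold higher) by its only probe set. Scarb1, a lipoprotein receptor, was at 0.29, but its other probe sets gave 0.60 and 0.76, and the mean over its probe sets was 0.55. The transport protein gene Slc27a1 was at -0.47. The short-chain fatty acid receptor gene Ffar2 was at -0.51, whereas its second probe set gave only -0.13.

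Of 13 other genes of the fatty acid and retinoid binding family, 4 were measured and 1 was at least 1.5-fold higher (4.76% of all genes). Rbp2, which carries retinol in enterocytes, read 17162 in the knockout pool, against 7494 in the control pool, a ratio of 1.20. Fabp5, the epidermal-type fatty acid binding protein, was at 0.24, Rbp7 at -0.022 (0.054 after median scaling), and Fabp3 was at least 1.10-fold higher. The adipocyte and macrophage gene Fabp4 and the ileal bile acid binding gene Fabp6, both named after their values were seen, were below the floor on both arrays. Fabp6 read 82.9 in the knockout pool and 87.6 in the control pool.

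The other acyl-CoA synthetases, which share Slc27a1 and Slc27a5 with the uptake list, gave no common direction. Of the 8 measured, none was at least 1.5-fold higher, beside 4.76% of all genes. At least 1.5-fold lower were 2 of the 8 (25.0%), beside 8.74% of all genes. The 8 ratios had a median of -0.12. With the floor at the 70th percentile neither lower call was left and the median was 0.15, and 1 gene was at least 1.5-fold higher under 4 other settings. Acsm3, a medium-chain synthetase, read 196 in the knockout pool and 412 in the control pool (-1.07). Acsl6, a long-chain synthetase known from brain, read 53.6 in the knockout pool, under the floor, and 195 in the control pool, so it was at least 2.10-fold lower. Aacs, which activates acetoacetate, was at 0.55 and Acsf3, which activates malonate, at 0.26.

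Of 7 acyl-CoA binding and related genes measured beside Dbi, 1 was at least 1.5-fold lower (8.74% of all genes). None of the 7 was at least 1.5-fold higher (4.76% of all genes). Their median was -0.10, which turned to 0.19 with the mean over probe sets. Eci3, an enoyl-CoA isomerase, read 944 in the knockout pool and 1633 in the control pool (-0.79). Scp2 was at -0.19, but its 4 probe sets went both ways and averaged 0.021, Eci2 at 0.21 and Acbd4 at 0.35. The thioesterases, which undo activation by splitting acyl-CoA, had a median of 0.19. Of 11 measured genes 10 were higher in the knockout pool, beside 44.9% of all genes. Most of the 11 ratios were smaller than the technical SD of 0.28. At least 1.5-fold higher were 2 of the 11 (18.2%), beside 4.76% of all genes. Acot9, a mitochondrial thioesterase, read 2569 in the knockout pool and 1379.8 in the control pool (0.90). Acot1, a cytosolic thioesterase, read 819.6 in the knockout pool and 495 in the control pool (0.73). Acot13 was at 0.061 and Acot12 at -0.30.

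**Figure D4:**
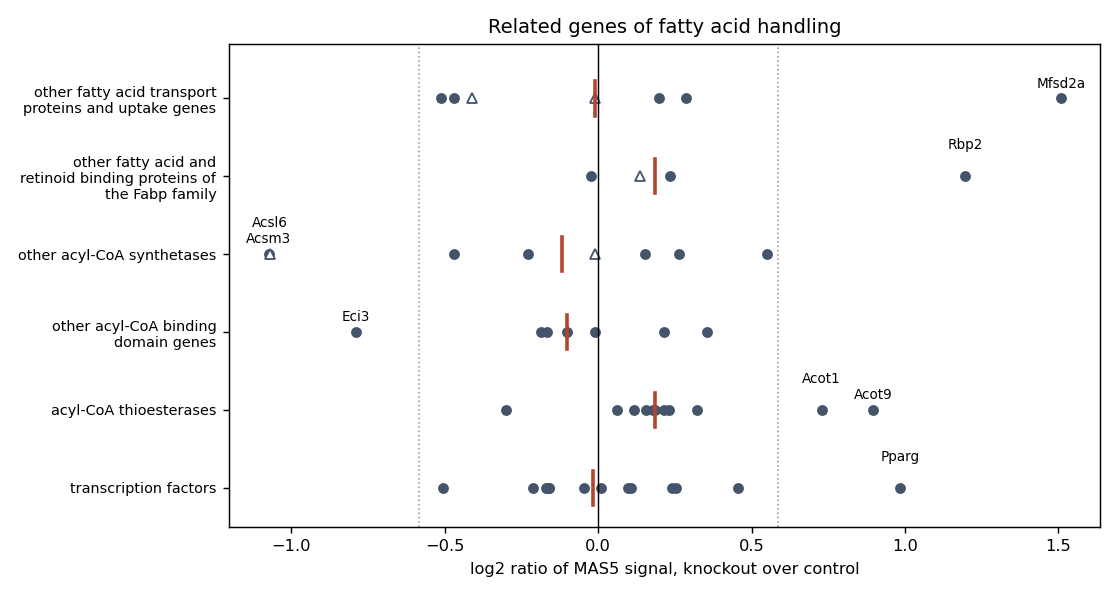
Log2 ratio of MAS5 signal, knockout over control, of the measured related genes, 1 row a list and 1 symbol a gene; triangles are bounds, red bars the list medians, dotted lines 1.5-fold, and genes at least 1.5-fold different are named. Mfsd2a at 1.51 and Rbp2 at 1.20 stand farthest to the right. Acsm3 at -1.07 and Acsl6, a bound at -1.07, stand farthest to the left.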

How the data were processed

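The deposited table holds a linear signal intensity for each probe set and array. Per the submitters' processing notes it came from MAS5, of which no version, target or option is stated in the sources used here. The mean signal after trimming 2% at each end was 500.0 on both arrays, so they had been scaled to 1 target and were used as deposited, with no centring and with knockout over control as the direction. Of 45037 non-control probe sets, 34945 carried 1 gene symbol in the array annotation, 932 several and 9160 none. Of the 34945, 34741 had an Entrez identifier in the RefSeq table of GRCm38.p6 and took its symbol, whether or not it changed. The floor was the 50th percentile over both arrays. The probe set with the highest mean log2 signal stands for a gene. Related genes are named where they differed by at least 1.5-fold or were among the 2 highest or 2 lowest of their list, and marker lists by their highest and lowest gene. Any other marker gene is marked in the text as picked with its values in view. The members and lists were chosen with earlier results of these data known. With 1 array a group there is no test, p-value or n, and the number of arrays limits precision. The calculation was tested on simulated data. Alternatives were quantile, lowess (span 0.3) and median scaling, other floors, a pseudocount and other probe set rules. Python 3.11.15, pandas 2.3.3 and statsmodels 0.14.6 were used.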

Additional observations from a re-analysis of the deposited data

How the results depend on the processing

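No paired analysis was possible because there was only 1 array for each genotype, and no array could be left out. Of 72 ratios of the 9 genes under the 8 alternatives, none changed sign and 68 moved by less than the technical SD. The other 4 were Cd36 at -0.88 with the floor at the 70th percentile, -1.67 with a pseudocount and -1.46 as the mean over probe sets, and Acsl4 at 0.62 with the floor at the 70th percentile, where fewer signals are above it. Many of the 72 had little or no room to move, so these totals say little about stability. The 4 genes with 1 probe set kept the same ratio under both probe set rules, and the other floors left bright genes unchanged. Median scaling shifted all fully measured ratios by 1 shared amount. Counts over all genes moved with the floor: 1234 higher and 1889 lower by at least 1.5-fold at the 30th percentile, and 308 and 432 at the 70th. Scaling changed their balance, with 650 higher and 851 lower after quantile normalisation, 638 and 875 after lowess, and 737 and 795 after median scaling. Among other synthetases, 1 was at least 1.5-fold higher after quantile, lowess or median scaling and at the 30th percentile floor, whereas 4 were lower at the 30th and 0 at the 70th. At the 30th percentile 1 gene of the other uptake and receptor list was at least 1.5-fold lower. Of all related genes 6 were lower at the 30th and 1 at the 70th percentile. The median of acyl-CoA binding genes was 0.19 as the mean over probe sets, since probe sets of some of these genes went both ways. Acbd3, named after its values were seen, gave -0.17 by its brightest probe set and 0.90, 0.47 and 0.29 by the others. Acbd5, named likewise, gave -0.10 by its brightest probe set and 0.49 by the other. Why the probe sets differ was not tested.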

Other observations

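Of 15 transcription factors listed for this tissue, 14 were measured, with a median log2 ratio of -0.017 (0.058 after median scaling and 0.11 with the mean over probe sets), 7 of them higher and 7 lower in the knockout pool. Pparg, a nuclear receptor for fatty acids, was the 1 gene at least 1.5-fold different (all genes: 4.76% higher, 8.74% lower). It read 524 in the knockout pool and 265 in the control pool by its only probe set, a ratio of 0.98. Srebf2, which drives sterol synthesis genes, was at 0.46. The lowest were Ppard, another fatty acid receptor, at -0.51 and Rxra, the partner receptor of the PPARs, at -0.21, but the mean over the probe sets of Rxra was 0.18. Chosen after their values were seen, Ppara and Hnf4a, whose products can bind the repeat found upstream of Fabp1, were at 0.096 and 0.11 by their brightest probe sets. The other Ppara probe sets gave 0.46 and 0.16. Other Hnf4a probe sets went both ways, at -0.052, -0.049 and, with the control signal under the floor, at least 1.63-fold higher.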
